A study of Mus musculus with 16 samples.

Results

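The RNA of 8 genes whose proteins form or visit PML nuclear bodies was followed through 16 RNA-seq libraries of mouse embryonic stem (ES) cells. The genes were taken by name: Pml, Sp100, Daxx, Atrx, Hira, Rnf4, Usp7 and Hipk2, which are 8 of the 24320 gene names of the Pml table and 8 of the 24394 of the arsenite and Trim33 tables. All 8 were listed in every table. Of these, 7 reached a value of 1 in at least 2 libraries of each table and were tested, and Sp100 did not reach it in any library.

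PML nuclear bodies are spherical, membrane-free structures of the nucleus. PML, a tripartite-motif protein, builds their shell, and its modification by SUMO, a small ubiquitin-like protein, recruits partners that bind SUMO. SP100 is the other constitutive component. DAXX and ATRX together place the histone variant H3.3 on repeats and telomeres, and HIRA belongs to a separate H3.3 chaperone complex that can gather at the bodies. RNF4 is a ubiquitin ligase that recognises SUMO chains and marks PML for breakdown after arsenic exposure, USP7 is a ubiquitin protease that acts on p53, MDM2 and DAXX among others, and HIPK2 is a kinase of the DNA damage response that phosphorylates p53. Arsenic acts on the PML protein, whereas these libraries measured RNA only.

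All libraries were labelled as the E14Tg2a.IV ES cell line, grown on gelatin without feeder cells in medium with LIF and serum; CCE, another ES line, appears in the growth protocol with no sample tied to it. The groups, of 2 libraries each, were Pml KO and WT cells, both untreated; cells given 200 µM sodium arsenite for 2 h and untreated WT cells; and Trim33 KO and WT cells, each given either 50 ng/ml activin A, which activates SMAD2 and SMAD3, or 10 µM SB431542, which inhibits the activin receptor kinase, for 2 h. How the knockouts were made, whether each was 1 clone, and whether the libraries of a group were separate cultures are not given in the sources used here, so p-values measure the spread between these libraries only. Values are FPKM in the Pml table and RPKM in the arsenite table, which are fragments or reads per kilobase of gene, scaled to library size; the Trim33 table names no unit and its values behave as RPKM. The 3 tables were normalised separately, so differences were tested only within a table, with limma on log2(value + 1). A gene was called where its p, adjusted by Benjamini-Hochberg over all genes tested, was under 0.05. Estimated from the spacing of low values, 1 RPKM was worth 31.3 to 48.6 reads per kilobase, and the depth of the Pml table is unknown.

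The identity of the libraries was checked on the targeted genes first. Trim33 averaged 2.66 ± 0.182 RPKM in Trim33 KO cells and 21.8 ± 2.41 RPKM in WT cells with activin A (SD, n = 2 each). With SB431542 it was the other way round, at 21.5 ± 4.43 RPKM in the libraries labelled KO and 2.69 ± 0.350 RPKM in those labelled WT, so "labelled KO" and "labelled WT" are written for those 4. The Y-linked gene Eif2s3y moved with Trim33 in every library of that table (0 to 0.143 RPKM where Trim33 was low, 38.3 to 41.0 RPKM where it was high), and it was 0.753 and 1.10 FPKM in Pml KO cells against 16.2 and 20.6 FPKM in WT cells. A further difference between the cell lines compared therefore cannot be told apart from either knockout. In bulk RNA, fewer cells of a type and less RNA per cell cannot be told apart either.

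The starts of 4 of the genes are shown because Pml, Daxx and Hipk2 were the genes called lower in Pml KO cells and Sp100 was listed at or near 0 throughout. Each sequence runs from 250 bases before the RefSeq start to 50 after it (GRCm38.p6, the assembly of mm10), 5′ to 3′ on the gene's strand, with CG dinucleotides in capitals.
Pml, chr9:58249737-58250036, minus strand: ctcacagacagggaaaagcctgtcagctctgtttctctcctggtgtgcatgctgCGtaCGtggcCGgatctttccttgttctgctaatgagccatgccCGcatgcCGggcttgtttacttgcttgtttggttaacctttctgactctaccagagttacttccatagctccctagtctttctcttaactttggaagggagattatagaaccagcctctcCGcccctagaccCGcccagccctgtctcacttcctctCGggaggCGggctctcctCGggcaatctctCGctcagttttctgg
Daxx, chr17:33909195-33909494, plus strand: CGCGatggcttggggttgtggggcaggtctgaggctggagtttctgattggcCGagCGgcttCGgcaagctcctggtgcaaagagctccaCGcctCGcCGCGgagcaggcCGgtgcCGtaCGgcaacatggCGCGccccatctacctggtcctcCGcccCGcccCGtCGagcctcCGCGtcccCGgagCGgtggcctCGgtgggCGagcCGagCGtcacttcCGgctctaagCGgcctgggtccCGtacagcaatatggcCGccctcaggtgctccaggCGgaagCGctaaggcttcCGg
Hipk2, chr6:38876141-38876440, minus strand: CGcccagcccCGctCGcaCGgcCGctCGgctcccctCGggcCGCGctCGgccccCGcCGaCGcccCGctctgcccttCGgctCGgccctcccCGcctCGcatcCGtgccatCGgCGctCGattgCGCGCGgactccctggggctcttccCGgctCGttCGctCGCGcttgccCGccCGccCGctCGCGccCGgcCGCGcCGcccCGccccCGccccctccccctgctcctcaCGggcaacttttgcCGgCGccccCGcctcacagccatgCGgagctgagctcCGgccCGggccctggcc
Sp100, chr1:85649738-85650037, plus strand: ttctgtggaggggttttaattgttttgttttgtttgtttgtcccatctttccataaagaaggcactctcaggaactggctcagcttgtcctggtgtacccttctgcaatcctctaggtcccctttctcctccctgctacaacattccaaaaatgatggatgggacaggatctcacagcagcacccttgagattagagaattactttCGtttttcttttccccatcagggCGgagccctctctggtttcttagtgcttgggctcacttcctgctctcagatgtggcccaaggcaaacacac
These windows held 11 CG dinucleotides in Pml, 33 in Daxx, 48 in Hipk2 and 2 in Sp100, against a median of 7 over all 32851 RefSeq promoters of the same length. Promoters with no more CG than Sp100 made up 23.3% of all, and those with no more than Hipk2 99.0%. All 8 genes matched a promoter, and the other 4 held 11 (Atrx), 26 (Rnf4), 63 (Usp7) and 31 (Hira). Daxx and Rnf4 had 3 listed promoters each, and Hipk2 and Sp100 had 2 each. For these the promoter nearest the annotated start of the gene was taken, and the others were not searched. On both strands, none of the 8 windows held the interferon-stimulated response element, searched as 2 copies of GAAA parted by 2 bases (in 3.4% of all promoters), the STAT site TTCNNNGAA (8.3%), the antioxidant response core TGACNNNGC (12.4%) or the heat-shock dimer GAANNTTC (7.9%). The GC box GGGCGG, found in 35.7% of all promoters, occurred in 6 of the 8, which are Pml (2 copies), Daxx (3), Sp100 (1), Hipk2 (5), Usp7 (8) and Hira (3).

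**Figure D1:**
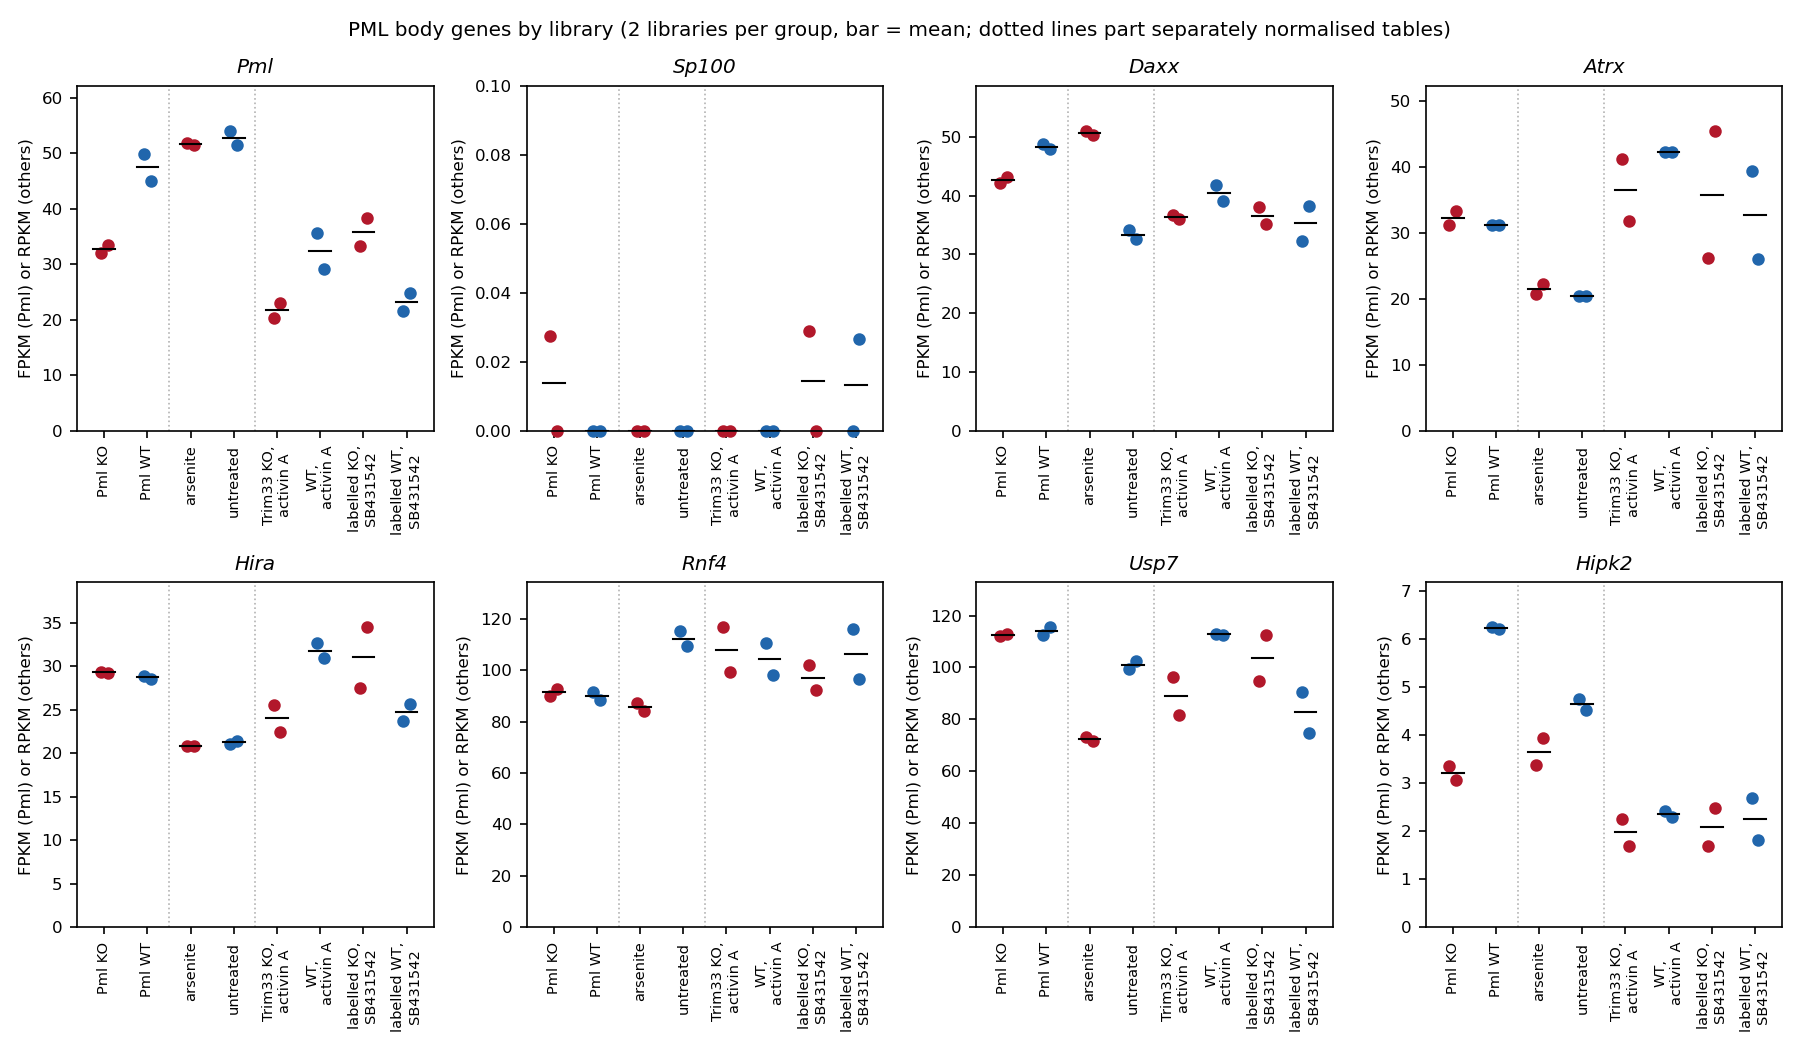
Level of each of the 8 genes in every library (points) with the group mean (bar), in FPKM for the Pml KO and WT groups and RPKM for the others; dotted lines part tables that were normalised separately. Pml and Hipk2 sit lower in Pml KO cells, Daxx sits higher with arsenite, and Sp100 stays at 0 to 0.0290 throughout.

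The values are per gene length, so levels of different genes can be ordered within a table. The order of close genes depends on the length taken for each gene, which was not checked. For Atrx the longest coding transcript has 10275 bases and all exons together have 21757. In WT cells of the Pml table the means were 114 FPKM for Usp7, 90.0 for Rnf4, 48.3 for Daxx, 47.5 for Pml, 31.2 for Atrx, 28.7 for Hira and 6.22 for Hipk2. Daxx and Pml overlapped between their libraries, and the other neighbours in that order did not. In untreated cells of the arsenite table Rnf4 (112 RPKM) stood above Usp7 (101), then came Pml (52.7), Daxx (33.3), Hira (21.2), Atrx (20.4) and Hipk2 (4.64), and no neighbours overlapped. In WT cells with activin A the order was Usp7 (113 RPKM), Rnf4 (104), Atrx (42.3), Daxx (40.4), Pml (32.4), Hira (31.8) and Hipk2 (2.35), and only Pml and Hira overlapped. The kinase gene Hipk2 was thus the lowest of the 7 tested genes in all 3 tables.

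Sp100, the other constitutive body component, was listed at 0 in 13 of the 16 libraries. The 3 values above 0 were 0.0274 FPKM in 1 Pml KO library, 0.0290 RPKM in 1 library labelled KO with SB431542 and 0.0265 RPKM in 1 library labelled WT with SB431542. The last 2 are each worth 0.93 reads per kilobase at the estimated depth. No fold change was computed for it. Its gene lies on chromosome 1 (85649988 to 85709998, mm10, plus strand, protein coding), and 8 household genes checked alongside were above 0 in every library.

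In Pml KO cells the RNA of Pml itself was lower but present, and Daxx and Hipk2 were the only partners called, both lower. Atrx, Hira, Rnf4 and Usp7 were not called. The targeted gene, Pml (chromosome 9, 58218076 to 58249786, minus strand, 9 exons in its longest coding transcript), had 32.0 and 33.5 FPKM in KO cells, against 49.8 and 45.1 FPKM in WT cells. The groups did not overlap, and the KO mean was 69.0% of the WT mean (log2 fold change -0.52 ± 0.06 SE, adjusted p = 4.89e-04, limma). A value summed over a whole gene cannot show which exons the reads came from, so it neither shows nor denies the loss of a deleted part. Hipk2 had 3.35 and 3.07 FPKM in KO cells, against 6.24 and 6.20 FPKM in WT cells. Its KO mean was 51.6% of the WT mean (log2 fold change -0.78 ± 0.09 SE, adjusted p = 3.55e-04). Daxx, the H3.3 chaperone recruited by SUMO-modified PML, had 42.1 and 43.2 FPKM in KO cells, against 48.7 and 48.0 FPKM in WT cells (log2 fold change -0.18 ± 0.05 SE, adjusted p = 0.0299). The Daxx groups did not overlap, but the call was lost with trimmed-mean scaling (adjusted p = 0.0591), with quantile normalisation (0.0850), with no intensity trend (0.0812), and without WT library 1 (0.0594), KO library 1 (0.196) or KO library 2 (0.105).

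The other 4 partners lay close to WT in Pml KO cells. Atrx, the remodeller that works with DAXX, had 31.2 and 33.3 FPKM in KO cells, against 31.2 and 31.3 FPKM in WT cells (log2 fold change 0.04 ± 0.06 SE, adjusted p = 0.592). Rnf4 had 89.9 and 92.8 FPKM in KO cells, against 91.6 and 88.3 FPKM in WT cells (adjusted p = 0.770). Both groups overlapped. Usp7 had 112 and 113 FPKM in KO cells, against 112 and 115 FPKM in WT cells (adjusted p = 0.801). Hira had 29.3 FPKM in both KO libraries, against 28.9 and 28.6 FPKM in WT cells (log2 fold change 0.03 ± 0.06 SE, adjusted p = 0.743). So 3 of 7 genes were lower and 0 higher, where 35.5% of the 11648 genes tested were called, 18.9% lower and 16.6% higher. The 3 include Pml, the targeted gene, so of the partners only Daxx and Hipk2 were lower. The median log2 fold change of the 7 (-0.02) equalled that of all genes (-0.02).

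Related genes moved in both directions in Pml KO cells, where 35.5% of all genes tested were called, 18.9% lower and 16.6% higher. Of 8 tested H3.3 chaperone partners 1 rose (H3f3b, a gene of H3.3 itself, log2 fold change 0.18) and 2 fell (Asf1b, a histone chaperone, -0.23, and H3f3a, the other H3.3 gene, -0.13). The H3.3 genes have many processed copies, which the authors' counting could split, so their values are uncertain. Of 21 tested genes of other proteins found at the bodies, 3 rose and 2 fell. Mdm2, the ubiquitin ligase of p53, averaged 67.4 ± 2.08 FPKM in KO cells and 40.0 ± 1.69 FPKM in WT cells (SD, n = 2 each; log2 fold change 0.74, adjusted p = 3.04e-05), and Rb1, the retinoblastoma gene, averaged 4.69 ± 0.120 FPKM in KO cells and 2.89 ± 0.264 FPKM in WT cells (0.55, adjusted p = 0.00326). Trp53, the gene of p53, was lower (log2 fold change -0.20, adjusted p = 0.0100). Of 17 SUMO cycle genes 2 rose and 3 fell, the falls being the SUMO ligase gene Pias3 (-0.32) and the SUMO protease genes Senp2 (-0.23) and Senp3 (-0.22).

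PML and SP100 are classed as interferon-inducible, so the interferon response was listed as well. Of 10 tested genes 8 reached 1 in both groups. Of these, 3 rose and 0 fell in Pml KO cells, where 16.6% of all genes tested were called higher. The other 2, Psmb8 and Isg15, reached 1 in KO cells only and so had to be higher there. B2m, the light chain of MHC class I, averaged 38.7 ± 0.784 FPKM in KO cells and 9.33 ± 0.599 FPKM in WT cells (SD, n = 2 each; log2 fold change 1.95, adjusted p = 3.48e-07). Psmb8, an immunoproteasome subunit, averaged 7.16 ± 3.06 FPKM in KO cells and 0.803 ± 0.186 FPKM in WT cells. Isg15, a ubiquitin-like modifier, averaged 2.40 ± 0.303 FPKM in KO cells and 0.231 ± 0.0692 FPKM in WT cells, and the peptide transporter gene Tap1 and the transcription factor gene Irf1 rose by 0.85 and 0.49 on the log2 scale. Pml fell in the same cells, and Sp100 stayed at or near 0.

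Markers of other cell types moved with the Pml KO libraries, where 35.5% of all genes tested were called, 18.9% lower and 16.6% higher. The summed level of 10 trophectoderm markers was 747 to 759 FPKM in KO cells, against 67.0 to 72.0 FPKM in WT cells. The keratin genes Krt8 (323 FPKM), Krt18 (280) and Krt19 (67.3) led that sum in KO cells, whereas Elf5 averaged 0.0808 FPKM. The 5 markers that reached 1 in both groups rose. The other 4 tested (Cdx2, Gata3, Hand1 and Krt7) passed the filter only through KO cells, which fixed their direction. The summed level of 11 fibroblast markers was 664 to 704 FPKM in KO cells, against 204 to 214 FPKM in WT cells. Among the 5 that reached 1 in both groups 4 were higher and 1 lower, and 3 more reached 1 in KO cells only. Tagln (271 FPKM), Vim (225) and Fn1 (134) led the sum in KO cells. Thy1 was lower, at 4.27 FPKM in KO cells and 7.27 FPKM in WT cells. Dcn, Lum and Postn averaged 0.0168, 0.0572 and 0.126 FPKM in KO cells. Such sums follow their highest genes and do not show that a cell type was present. Two-cell-like markers summed to 10.4 to 11.2 FPKM in KO cells, against 2.50 to 2.57 FPKM in WT cells, and primitive endoderm markers to 3.13 to 3.23 FPKM in KO cells, against 7.21 to 7.68 FPKM in WT cells. All 3 two-cell-like markers tested, and the 2 primitive endoderm markers that were called, reached 1 only in the group where they were high. ES cell markers summed to 7790 to 8040 FPKM in KO cells, against 8190 to 8210 FPKM in WT cells, with 4 of 10 lower and none higher, and no marker of these lists was at 0 in all 4 libraries. The part of these markers in the levels of Pml, Daxx and Hipk2 was not tested.

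Arsenite left the level of Pml RNA close to that of untreated cells after 2 h. Of its 6 tested partners 4 were called, a share near the 67.7% of all genes called in this comparison. Pml had 51.9 and 51.5 RPKM with arsenite, against 54.0 and 51.5 RPKM in untreated cells. The groups overlapped (log2 fold change -0.03 ± 0.04 SE, adjusted p = 0.564). Daxx had 51.0 and 50.3 RPKM with arsenite, against 34.1 and 32.6 RPKM in untreated cells, so that its level came near that of Pml. Its groups were well apart (log2 fold change 0.59 ± 0.04 SE, adjusted p = 1.91e-05), and it was the 1 member that rose. Its partner Atrx had 20.7 and 22.2 RPKM with arsenite, against 20.4 RPKM in both untreated libraries, and was not called (log2 fold change 0.07 ± 0.05 SE, adjusted p = 0.269).

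Rnf4, Usp7 and Hipk2 fell with arsenite. Rnf4, whose protein acts on arsenic-modified PML, had 87.2 and 84.3 RPKM with arsenite, against 115 and 110 RPKM in untreated cells (log2 fold change -0.39 ± 0.04 SE, adjusted p = 1.24e-04). Usp7 had 73.1 and 71.8 RPKM with arsenite, against 99.3 and 102 RPKM in untreated cells (-0.47 ± 0.04 SE, adjusted p = 2.92e-05). Neither pair of groups overlapped. Hipk2 had 3.37 and 3.93 RPKM with arsenite, against 4.75 and 4.53 RPKM in untreated cells (-0.28 ± 0.09 SE, adjusted p = 0.0272). That call was lost without the filter on low values (adjusted p = 0.0757) and without arsenite library 1 (0.162) or untreated library 1 (0.0857). Hira had 20.8 RPKM in both arsenite libraries, against 21.0 and 21.4 RPKM in untreated cells, and was not called (-0.03 ± 0.05 SE, adjusted p = 0.617). In all, 1 of 7 genes rose and 3 fell, where 67.7% of the 12136 genes tested were called, 40.7% higher and 27.0% lower. Among all genes called, 60.1% were higher, against 49.0% with quantile normalisation.

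The related genes were widely affected by arsenite, as was the whole table, where 67.7% of all genes tested were called. Of 8 tested H3.3 chaperone partners 1 rose and 4 fell. Ubn1, a subunit of the HIRA complex, averaged 24.3 ± 0.276 RPKM with arsenite and 13.1 ± 0.113 RPKM in untreated cells (SD, n = 2 each; log2 fold change 0.85), and H3f3b averaged 382 ± 15.8 RPKM with arsenite and 735 ± 1.52 RPKM in untreated cells (-0.94). Of 17 SUMO cycle genes 4 rose and 8 fell. Sumo2 averaged 136 ± 0.741 RPKM with arsenite and 40.0 ± 2.17 RPKM in untreated cells (log2 fold change 1.74, adjusted p = 2.32e-07), whereas Sumo3 fell (-0.52). Sumo2 and the H3.3 genes have many processed copies, which the authors' counting could split, so their values are uncertain. In the Pml table Sumo2 spread widely between libraries of a group (151 ± 112 FPKM in KO cells and 176 ± 158 FPKM in WT cells).

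Of 21 other genes of body proteins, 9 rose and 7 fell with arsenite. In this comparison 67.7% of all genes tested were called, 40.7% higher and 27.0% lower. Mdm2 averaged 167 ± 0.820 RPKM with arsenite and 84.8 ± 2.62 RPKM in untreated cells (SD, n = 2 each; log2 fold change 0.97), and Rb1 averaged 18.4 ± 0.0520 RPKM with arsenite and 8.81 ± 0.194 RPKM in untreated cells (0.99). Sirt1, a deacetylase gene, and Eif4e, the gene of the cap-binding protein, fell (-0.80 and -0.52). Of 8 tested interferon response genes 4 rose and 1 fell, with B2m (1.13) and Tap1 (1.01) leading. The medians were -0.12 for the H3.3 partners, 0.09 for the other body proteins, -0.09 for the SUMO cycle and 0.19 for the interferon response, against 0.08 over all genes. ES cell markers summed to 2820 to 2930 RPKM with arsenite, against 5400 to 5480 RPKM in untreated cells. Of these 10 markers 8 were lower and 2 higher. Trophectoderm markers summed to 171 to 174 RPKM with arsenite, against 96.4 to 98.0 RPKM in untreated cells. Of 8 tested 7 were higher, of which Gata3 and Hand1 reached 1 with arsenite only, and 1 was lower. Fibroblast markers summed to 326 to 350 RPKM with arsenite, against 259 to 260 RPKM in untreated cells. Primitive endoderm markers summed to 14.3 to 15.5 RPKM, against 7.86 to 8.11 RPKM, and two-cell-like markers to 1.03 to 1.33 RPKM, against 1.12 to 1.18 RPKM. The part of these markers in the levels of Daxx, Rnf4, Usp7 and Hipk2 was not tested.

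**Figure D2:**
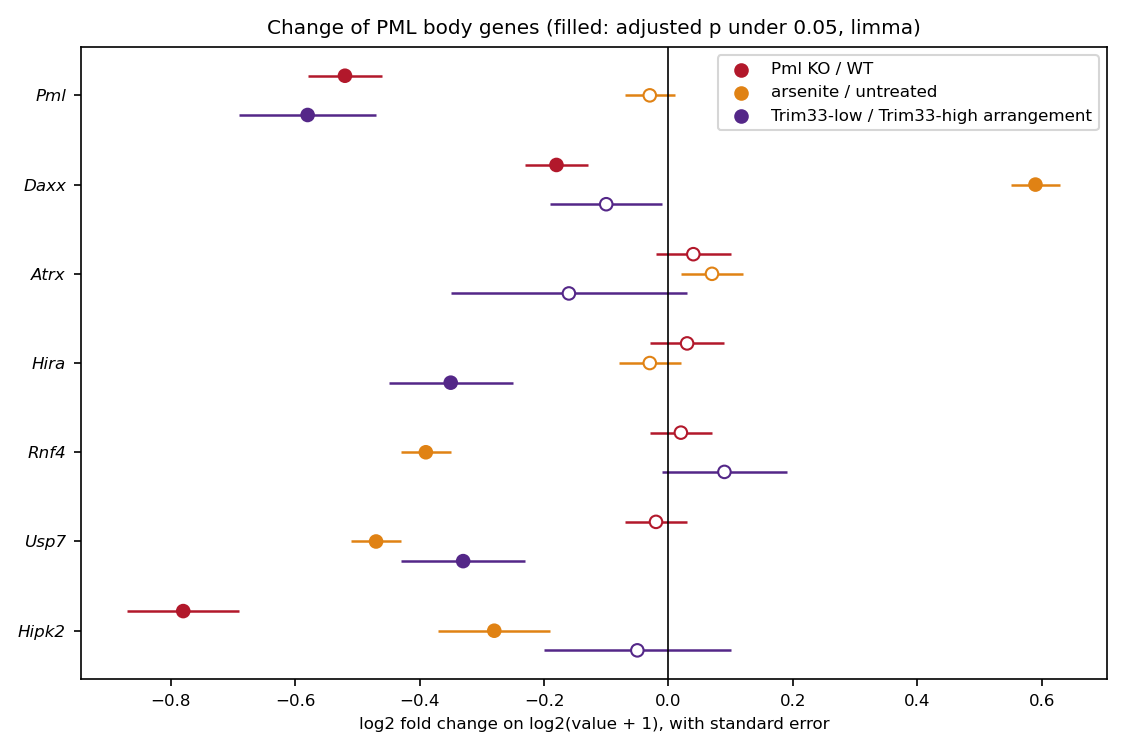
Log2 fold change of the 7 tested genes with its standard error in Pml KO against WT cells, arsenite against untreated cells, and the libraries with low against high Trim33; filled points passed an adjusted p of 0.05. Pml is lower in Pml KO cells and with low Trim33 and near 0 with arsenite, where Daxx rises by 0.59.

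In the Trim33 table, Pml was lower in the libraries with low Trim33, whatever their genotype label. Eif2s3y split these libraries the same way, so Trim33 level and a further difference between the cell lines cannot be told apart. With activin A, Pml had 20.2 and 23.1 RPKM in Trim33 KO cells, against 35.6 and 29.2 RPKM in WT cells. With SB431542 it had 33.3 and 38.3 RPKM in the libraries labelled KO, against 21.6 and 24.8 RPKM in those labelled WT. In both treatments the groups did not overlap, and the directions were opposite. The difference was -0.56 ± 0.15 SE on the log2 scale with activin A, just above the threshold (adjusted p = 0.0504, limma), and 0.60 ± 0.15 SE with SB431542 (adjusted p = 0.0387). With activin A, 0 of 7 genes were called, 3 of them with an unadjusted p under 0.05 (Pml, Usp7 and Hira), where 9.43% of the 11914 genes tested were called and 26.0% had an unadjusted p under 0.05. With SB431542 only Pml was called, higher in the libraries labelled KO, where 9.56% of all genes were called and 3.01% were called higher. The Pml call with activin A was gained without labelled-KO SB431542 library 1 (adjusted p = 0.0424) or 2 (0.0429). The call with SB431542 held without labelled-KO SB431542 library 1 (0.0488) and was lost without any other library, with adjusted p of up to 0.189.

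**Figure D3:**
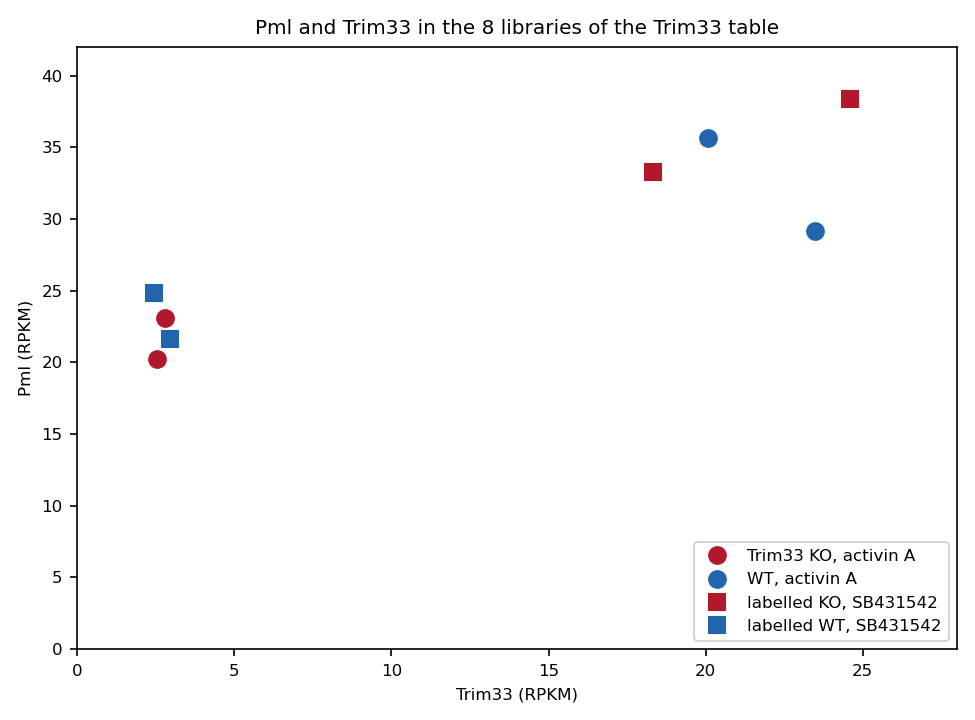
Pml against Trim33, both in RPKM, in the 8 libraries of the Trim33 table. The 4 libraries with Trim33 at 2.44 to 2.94 have Pml at 20.2 to 24.8, and the 4 with Trim33 at 18.3 to 24.6 have Pml at 29.2 to 38.3.

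The label by treatment interaction tests whether the 2 differences differ, and it was halved to stand on the scale of a single difference. It sets Trim33 KO with activin A and labelled WT with SB431542 (Trim33 low) against WT with activin A and labelled KO with SB431542 (Trim33 high), and it shares its libraries with the comparisons within each treatment. Pml averaged 22.4 ± 1.97 RPKM in the 4 libraries with low Trim33 and 34.1 ± 3.88 RPKM in the 4 with high Trim33 (SD), a log2 difference of -0.58 ± 0.11 SE (adjusted p = 0.00486). Leaving out each library in turn kept the adjusted p between 0.00687 and 0.0235. Among the partners Hira and Usp7 were lower too. Hira had 25.6, 22.4, 23.7 and 25.7 RPKM with low Trim33, against 32.6, 30.9, 27.5 and 34.4 RPKM with high Trim33. Its groups did not overlap (-0.35 ± 0.10 SE, adjusted p = 0.0320). Usp7 had 96.4, 81.9, 90.5 and 74.9 RPKM with low Trim33, against 113, 112, 94.9 and 113 RPKM with high Trim33. Its groups overlapped by 1 library (-0.33 ± 0.10 SE, adjusted p = 0.0418).

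The calls of Hira and Usp7 changed when single libraries were left out. The Hira call was lost without any library but labelled-KO SB431542 library 1, with adjusted p of up to 0.112, and the Usp7 call without any but library 1 of either SB431542 label, with adjusted p of up to 0.138. Usp7 was also not called with quantile normalisation (adjusted p = 0.0901), without the filter on low values (0.0666) or without the intensity trend (0.0658). In the interaction 3 of 7 genes were lower and 0 higher, where 26.3% of the 11914 genes were called, 10.1% lower and 16.1% higher. The median of the 7 was -0.16 against 0.01 over all genes. Among all genes called, 61.5% were higher, against 49.5% with quantile normalisation. With activin A alone that share was 70.1% against 57.9%, and with SB431542 alone 31.5% against 41.7%.

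The other partners did not pass the test in the Trim33 table. Daxx averaged 35.8 ± 2.53 RPKM with low Trim33 and 38.5 ± 2.76 RPKM with high Trim33 (SD, n = 4 each; log2 difference -0.10 ± 0.09 SE, adjusted p = 0.426). Rnf4 averaged 107 ± 10.7 RPKM with low Trim33 and 101 ± 7.75 RPKM with high Trim33 (adjusted p = 0.567). Atrx varied widely between libraries of a group, with 26.2 and 45.5 RPKM in the libraries labelled KO with SB431542 and 39.4 and 26.0 RPKM in those labelled WT (log2 difference -0.16 ± 0.19 SE, adjusted p = 0.572). Hipk2 stayed between 1.70 and 2.69 RPKM in all 8 libraries (adjusted p = 0.830), with groups that overlapped.

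Activin A against SB431542, averaged over the genotype labels, changed 0 of 7 genes, and all adjusted p were 1.00 (limma). None had an unadjusted p under 0.05, and only 0.109% of all genes were called. Pml averaged 27.0 ± 6.85 RPKM with activin A and 29.5 ± 7.68 RPKM with SB431542 (SD, n = 4 each), a spread set by the high and low Trim33 libraries within each treatment.

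The related genes moved in both directions with Trim33, where 26.3% of all genes tested were called, 10.1% lower and 16.1% higher. Of 8 H3.3 chaperone partners 2 rose with low Trim33 (H3f3b, 0.39, and Asf1b, 0.51) and 2 fell (Asf1a, -0.71, and H3f3a, -0.37). The values of H3f3a and H3f3b are uncertain here too, because of their processed copies. Of 16 SUMO cycle genes 2 fell and none rose. Pias3 averaged 4.03 ± 0.574 RPKM with low Trim33 and 9.04 ± 0.294 RPKM with high Trim33 (SD, n = 4 each; adjusted p = 6.68e-04), 44.6% of the mean with high Trim33. Of 21 other body genes 2 rose, Rad50 of the MRN repair complex (0.61) and the ubiquitin ligase gene Chfr (0.49), and Eif4e fell (-0.26). Of 11 interferon response genes 9 reached 1 on both sides, and 0 of these were called. Psmb8 (-1.02) and Ifit2 (-0.69) were called lower, but they reached 1 with high Trim33 only, which fixed their direction. Markers of two-cell-like cells summed to 5.35 to 14.7 RPKM with low Trim33, against 0 to 0.114 RPKM with high Trim33; the 5 tested reached 1 with low Trim33 only, so their direction was set by the filter. ES cell markers summed to 3570 to 4180 RPKM with low Trim33, against 3320 to 4520 RPKM with high Trim33. Of these 10 markers 2 were higher and 2 lower with low Trim33. Trophectoderm markers summed to 191 to 279 RPKM with low Trim33, against 152 to 206 RPKM with high Trim33, with 3 of 9 tested higher. Fibroblast markers summed to 241 to 430 RPKM with low Trim33, against 291 to 316 RPKM with high Trim33. Of 8 tested 3 were higher, and 1 of those reached 1 with low Trim33 only. The part of these markers in the levels of Pml, Hira and Usp7 was not tested.

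**Figure D4:**
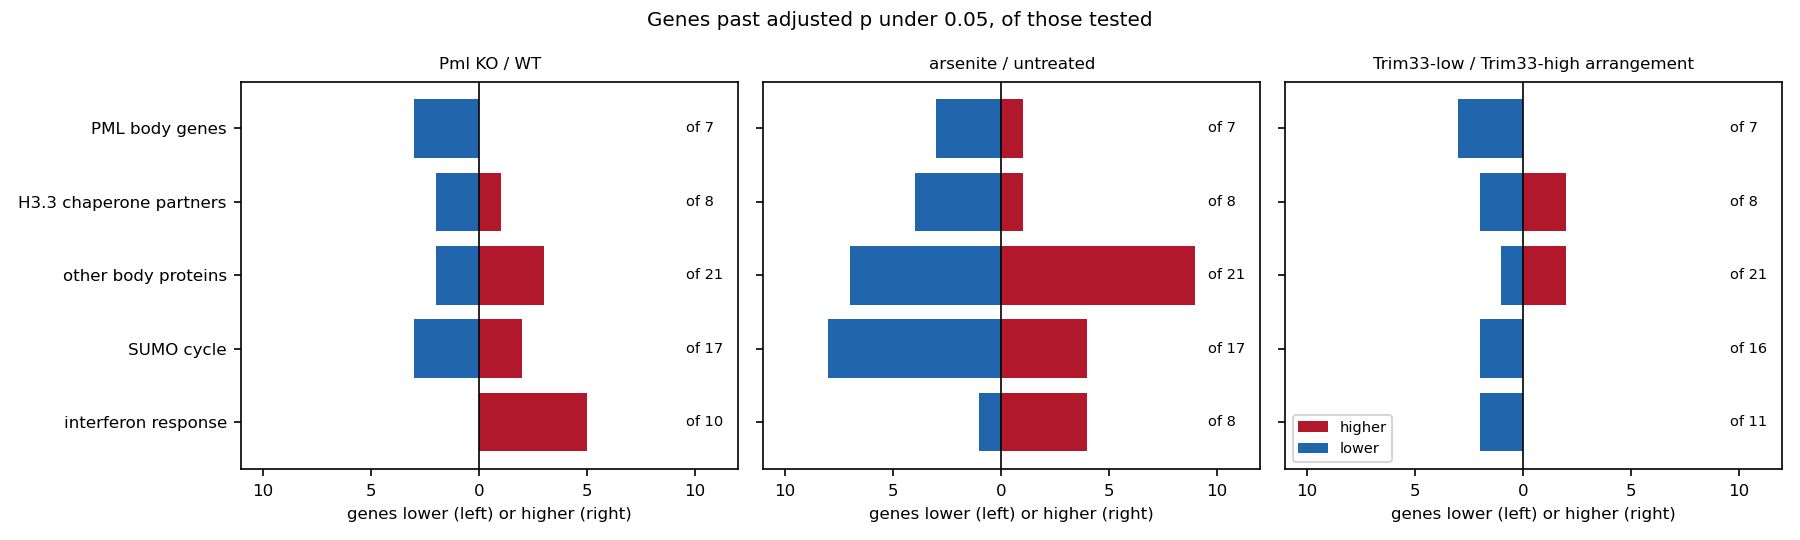
Number of genes per list that passed an adjusted p of 0.05, higher to the right and lower to the left, with the number tested beside the bars, in Pml KO against WT cells, arsenite against untreated cells, and low against high Trim33. The body genes have 3 lower in each comparison, which in Pml KO cells include Pml itself, and 1 higher with arsenite. Of the interferon genes, 2 higher in Pml KO cells and the 2 lower with low Trim33 reached 1 only on their high side.

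The balance between Pml and its partners was then taken within each library, as the log2 ratio of each partner to Pml. All these ratios share the Pml value, so they are not independent of each other. In Pml KO cells, where Pml itself fell, Atrx stood at 0.984 times Pml in KO cells and 0.659 times Pml in WT cells (log2 difference of the ratio 0.57 ± 0.10 SE, adjusted p = 4.34e-05, limma). Rnf4 (0.54), Hira (0.55), Usp7 (0.50) and Daxx (0.34) also rose relative to Pml, and Hipk2 fell by 0.26 (adjusted p = 0.0496). This made 6 of 6 tested partners, where 86.5% of all genes changed relative to Pml. The fall of the targeted gene enters every ratio, so this count shows that fall again. Atrx, Rnf4, Hira and Usp7 were not called on their own level. Without KO library 1 or KO library 2 the number was 4, and without WT library 2 it was 5. With arsenite, Daxx stood at 0.980 times Pml with arsenite and 0.632 times Pml in untreated cells (0.62 ± 0.05 SE, adjusted p = 2.00e-07), while Rnf4 (-0.36) and Usp7 (-0.44) fell relative to it. Hipk2 missed the threshold (-0.25, adjusted p = 0.0517), so 3 of 6 changed, where 64.7% of all genes did.

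Relative to Pml, 4 of 6 partners rose with low Trim33, where 76.9% of all genes changed. Rnf4 stood at 4.83 times Pml with low Trim33 and 2.98 times Pml with high Trim33 (0.67 ± 0.17 SE, adjusted p = 3.18e-04), and Hipk2 (0.53), Daxx (0.48) and Atrx (0.42) rose relative to Pml as well. The lower Pml enters these ratios too, and these 4 partners were not called on their own level. Hira (0.23, adjusted p = 0.206) and Usp7 (0.25, adjusted p = 0.172), which fell alongside Pml, were not called. Without 1 library the number called ranged from 1 (without Trim33 KO activin A library 1) to 4, and it was 2 without WT activin A library 1 or labelled-WT SB431542 library 1.

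**Figure D5:**
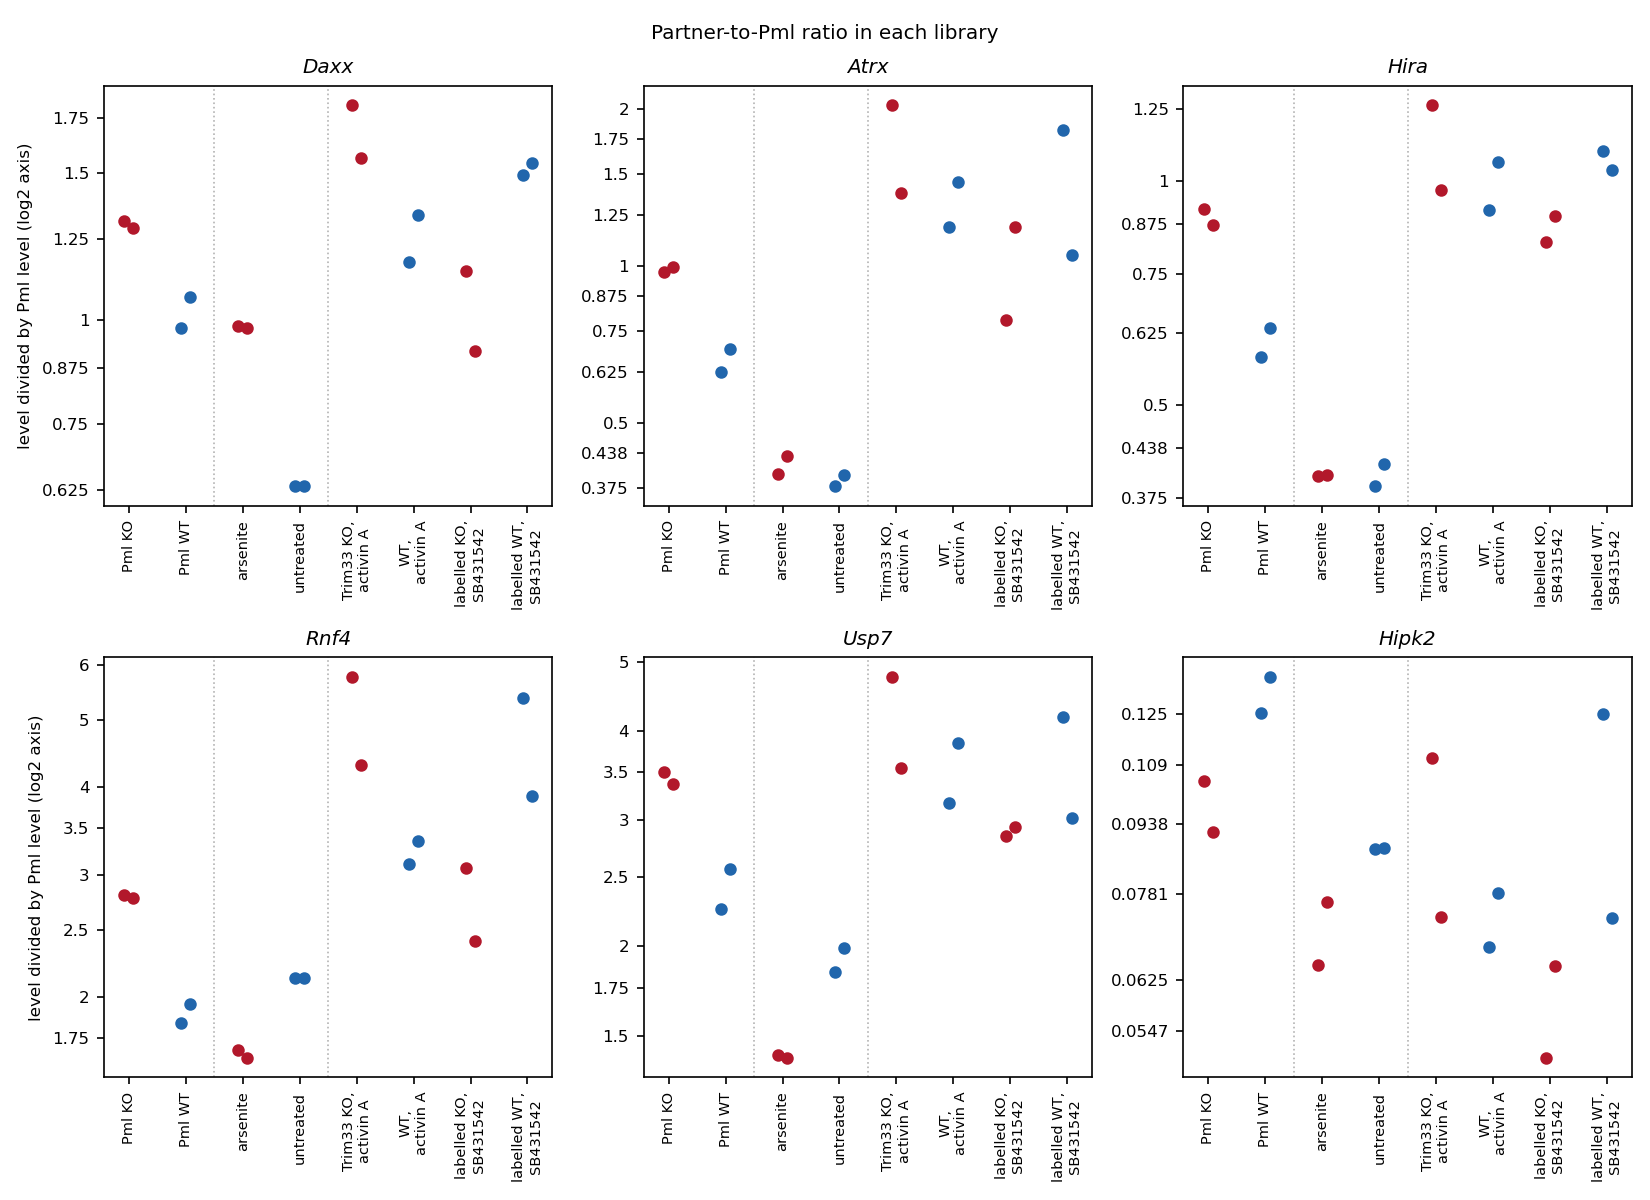
Level of 6 partners divided by the level of Pml in each library (log2 axis), by group; dotted lines part separately normalised tables. The Daxx ratio is 0.977 to 0.983 with arsenite and 0.631 to 0.633 in untreated cells, and the Hipk2 ratio is lower in Pml KO cells, where the others are higher.

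Likeness to Pml over all 16 libraries was measured as the root mean square difference of log2(value + 1) after centring each gene within each table. Among 10867 genes tested in all tables, with a median of 0.313, the nearest were Cyp51 (0.101), an enzyme gene of cholesterol synthesis, Prodh (0.103), the proline dehydrogenase gene, Nfx1 (0.104), a zinc-finger gene, Spats2 (0.11) and Rnaseh2c (0.114), a subunit gene of ribonuclease H2. Cyp51 averaged 11.2 ± 0.168 FPKM in Pml KO cells and 16.7 ± 0.453 FPKM in WT cells, and 17.3 ± 2.25 RPKM with low Trim33 and 27.9 ± 3.26 RPKM with high Trim33. Of the partners, Hira was nearest to Pml at 0.186 (rank 355), followed by Usp7 (0.242), Hipk2 (0.264), Daxx (0.268), Atrx (0.317) and Rnf4 (0.320), of which the last pair lay beyond the median. These values describe the pattern over libraries that share cell lines and treatments, and carry no test.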

How the data were processed

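Per the labels' protocols, total RNA went into Illumina TruSeq libraries. Bowtie2 2.3.3, featureCounts 2.0.1, DESeq2 and the build mm10 are listed in the submitters' processing notes, with no role stated. The sources used here do not say if counts were stranded, so overlapping antisense genes cannot be told apart. The authors deposited 3 separately normalised tables, holding FPKM (Pml table) and RPKM (arsenite table), per the file headers; the deposited values of the Trim33 table name no unit and were read as RPKM. The untreated columns of the arsenite table were matched as its remaining group.

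Values were tested on log2(value + 1), which understates changes of low genes, with limma 3.58.1 in R 4.3.3 (two-sided moderated test from lmFit and eBayes, variance prior trended on intensity, p-values adjusted by Benjamini-Hochberg over all tested genes). A gene entered a fit when 2 or more of the table's libraries reached 1; the 27 names in each table that look like dates were dropped. The fit of the Trim33 table held 4 group means and left 4 residual degrees of freedom; the other tables were fitted separately and left 2. No pair of libraries in a group held identical values. Depth was estimated for the RPKM tables from single-exon genes, and it limits the precision of low genes such as Sp100. Alternatives were another pseudocount, no filter, other scalings, no intensity trend, a replicate block, fits within a treatment and leaving out each library. Members, lists and tests were chosen with earlier results of these data known. Named genes are the 8 members, Trim33, Eif2s3y, up to 4 genes per list with the smallest p in a comparison and the 5 genes most like Pml; a few further list genes were chosen after their values were seen. The fits were also run on simulated data with independent errors drawn from limma's own prior, which cannot show how correlated libraries would affect them. Coordinates come from GENCODE vM21 (GRCm38) and promoters from RefSeq; Python 3.11.15 and matplotlib 3.10.9 were used for annotation and figures.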

Additional observations from a re-analysis of the deposited data

Results flagged for a closer look

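The effect of the genotype label differed between activin A and SB431542 for 3 of the 7 tested genes, by the interaction test of limma over all genes, which called 26.3% of all genes tested. The halved difference was -0.58 for Pml, -0.35 for Hira and -0.33 for Usp7 on the log2 scale, each with the label effect negative with activin A and positive with SB431542. The calls of Hira and Usp7 were lost without most single libraries, with adjusted p of up to 0.112 and 0.138. Trim33 itself has the same reversal, as its level goes against the genotype label in all 4 SB431542 libraries.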

How the results depend on the processing

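Of 546 alternative values of the members' log2 fold changes, 506 kept their side of the threshold, 35 lost the call, 5 gained it and 0 of those called changed direction; 17 changed sign among values called in neither setting. Pml was called in Pml KO cells and in the interaction under every alternative run, and so were Daxx, Rnf4 and Usp7 with arsenite and Hipk2 in Pml KO cells. With SB431542 the number of members called was 0 without the filter, without the intensity trend and with the 4 SB431542 libraries alone, where 608 genes were called against 1139. With activin A it was 1 with trimmed-mean scaling and with the 4 activin A libraries alone, where 1852 genes were called against 1123. Activin A against SB431542 gave 8 genes without the filter against 13. Leaving out each library in turn gave 185 to 1546 genes with activin A, 294 to 1036 with SB431542, 1853 to 3395 in the interaction (3129 with all libraries) and 7 to 16 for activin A against SB431542; members called ranged from 0 to 1, 0 to 1, 1 to 3 and 0 to 0 in these comparisons, from 2 to 3 in Pml KO cells and 3 to 4 with arsenite, and partners changed relative to Pml from 1 to 4 in the interaction and from 4 to 6 in Pml KO cells, where the replicate block gave 5. The cause of these changes was not tested.

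The replicate numbers pair no samples by the labels, and deviations of same-numbered libraries correlated by 0.02 in the Pml table and -0.14 to 0.60 in the Trim33 table. The highest were 0.60 between the 2 groups with low Trim33 and 0.37 between the 2 with high Trim33. The 4 libraries on each side of the interaction may therefore not be independent, although the main fit treated them so. With the number as a replicate block, 1 member was called with activin A and 23 genes in activin A against SB431542. With the 2 SB431542 groups paired crosswise, an alternative added after seeing the data, Pml was the 1 member called and 989 genes were called. Group sizes of 2 libraries limit the error estimates, which rest on the spread limma shares between genes.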
